A study of Mus musculus with 57 samples.

Results

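Granulocyte-monocyte progenitors (GMP; granulocyte macrophage progenitors in the labels) and megakaryocyte-erythroid progenitors (MEP) were sorted from the bone marrow of the same mice, and their transcriptomes were compared gene by gene. The comparison took every control-treated library labelled GMP or MEP, which gave 4 GMP and 4 MEP libraries, 8 of the 57 libraries of the series. Each population had 1 library from each of mouse pools 1, 3, 5 and 7, and all 8 were labelled batch A. The mice were C57BL/6 males that were 8 weeks old when a 4 week course of a control or an anti-PAPP-A antibody began. PAPP-A is a secreted protease that cleaves binding proteins of insulin-like growth factor (IGF). A further 4 GMP and 4 MEP libraries came from pools 2, 4, 6 and 8, whose mice received the anti-PAPP-A antibody, and they served as a separate set of animals. The labels do not give the gates of the sorts or how many mice a pool held. A p-value therefore measures the spread between pools, each counted as 1 sample.

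Both populations descend from a shared myeloid progenitor in the marrow. GMP give rise to neutrophils and monocytes and carry the enzymes that will be stored in the primary (azurophil) granules, while MEP give rise to red cells and to megakaryocytes, the source of platelets. The choice is tied to sets of transcription factors: PU.1 and the C/EBP proteins act in the granulocyte and monocyte branch, and GATA-1, its cofactor FOG-1 (Zfpm1) and KLF1 act in the red cell and platelet branch. PU.1 and GATA-1 restrain each other's activity.

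The 6 upstream windows below come from genes of sets with large differences between the populations. They belong to 4 neutrophil granule proteases and enzymes that were higher in GMP and 2 red cell surface proteins that were higher in MEP. All 6 windows hold the letters marked in them, whereas many genes of these sets do not, so the windows do not represent their sets. The sequences are from RefSeq (GRCm38.p6), run from 5′ to 3′ on the strand of the gene, begin 250 bases before its RefSeq start and stop at that start or at the first exon annotated by GENCODE M21. The windows are chr11:87793534-87793580 (+) for Mpo, chr10:79886062-79886246 (+) for Elane, chr10:79879417-79879613 (+) for Prtn3, chr14:56102575-56102824 (-) for Ctsg, chr9:21963577-21963826 (-) for Epor and chr6:41704340-41704575 (-) for Kel. Capitals mark GAGGAAG, a core bound by PU.1, in the granule genes, and AGATAA or its reverse complement, a core bound by GATA factors, in the red cell genes.
Mpo: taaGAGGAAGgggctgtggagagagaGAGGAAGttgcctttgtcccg
Elane: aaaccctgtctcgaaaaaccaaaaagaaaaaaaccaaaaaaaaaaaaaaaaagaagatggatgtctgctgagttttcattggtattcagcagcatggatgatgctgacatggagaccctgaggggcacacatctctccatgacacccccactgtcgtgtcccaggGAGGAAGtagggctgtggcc
Prtn3: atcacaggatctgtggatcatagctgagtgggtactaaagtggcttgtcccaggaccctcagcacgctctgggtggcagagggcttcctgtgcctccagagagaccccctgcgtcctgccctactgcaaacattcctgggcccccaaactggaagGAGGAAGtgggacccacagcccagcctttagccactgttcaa
Ctsg: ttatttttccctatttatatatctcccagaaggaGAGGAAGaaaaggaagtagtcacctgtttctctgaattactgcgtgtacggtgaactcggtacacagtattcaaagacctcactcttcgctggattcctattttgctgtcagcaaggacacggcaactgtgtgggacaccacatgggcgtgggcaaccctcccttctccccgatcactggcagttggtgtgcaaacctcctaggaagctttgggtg
Epor: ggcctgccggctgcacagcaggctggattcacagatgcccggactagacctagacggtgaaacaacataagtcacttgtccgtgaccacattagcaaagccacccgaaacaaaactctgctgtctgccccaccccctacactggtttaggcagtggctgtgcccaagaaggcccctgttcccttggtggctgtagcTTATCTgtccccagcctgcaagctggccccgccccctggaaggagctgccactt
Kel: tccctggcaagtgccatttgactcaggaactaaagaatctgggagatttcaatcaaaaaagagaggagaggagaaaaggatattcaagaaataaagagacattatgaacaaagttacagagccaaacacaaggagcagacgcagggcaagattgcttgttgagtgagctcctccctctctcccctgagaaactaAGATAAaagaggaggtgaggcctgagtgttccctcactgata
The letters were searched on both strands of the full 250 bases before the start of each gene in the RefSeq table, and both spellings were chosen with these sequences in view. GAGGAAG stood in 7 of the 15 primary granule genes that matched the table, in 2 of the 14 matched red cell membrane genes and in 12% of all 27025 genes. AGATAA stood in 0 of the 15 granule genes, 4 of the 14 red cell genes and 11.4% of all genes. A C/EBP core, TTGCNNAA, stood in 2 of 15 and 2 of 14 against 10.8% of all genes, and a KLF core, CCACACCC, in 2 of 15 and 0 of 14 against 3.68%. No run of capitals overlaps a match of another core, and a match describes the letters of a window and is not a measured site.

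The populations differed across much of the transcriptome. Of 14221 genes tested, 2874 were higher in GMP (20.2%) and 2862 were higher in MEP (20.1%), so 40.3% passed the adjusted threshold of 0.05 of edgeR's quasi-likelihood test with pool as a block. Differences of at least 1 on the log2 scale were met by 1573 genes higher in GMP (11.1%) and 1271 higher in MEP (8.94%). All GMP libraries lay above all MEP libraries for 2767 genes (19.5%) and below them for 2840 (20%). The widest differences lay on the MEP side, with 20 genes higher in GMP and 95 higher in MEP by at least 6 log2 units. Totals were 7172857 to 32179356 counts in GMP libraries and 6886882 to 42471152 counts in MEP libraries. The first principal component of the 8 libraries took 72.4% of the variance and separated the populations, and the next, with 9.81%, set GMP pool 5 apart at -61.4 against -17.4 to 28.3 in the others. A set of 6 features grouped as ribosomal RNA, picked after their values were seen, held 12.8% of the counts in GMP pool 1 and 0.104% to 0.633% in the other 7 libraries. The set includes the protein gene Lars2 and the microRNA gene Mir6236, so this is not a measured share of ribosomal RNA. Counts of genes higher in GMP and higher in MEP were 2566 and 2113 without pool 1, and 3193 and 3133 without pool 5.

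**Figure D1:**
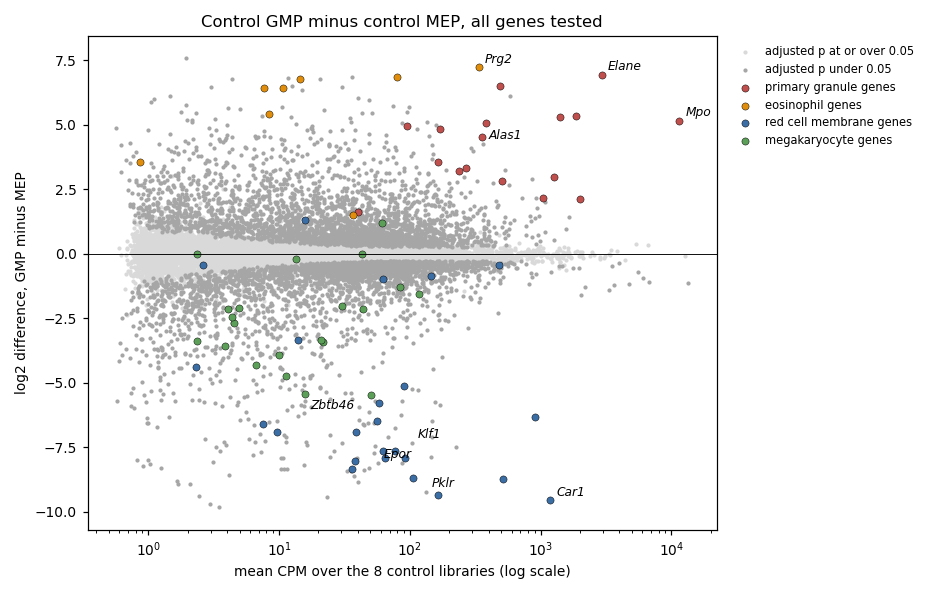
Log2 difference of each tested gene (GMP minus MEP, control pools) against its mean level over the 8 control libraries in CPM (log scale). Dark grey points passed the adjusted threshold. The primary granule and eosinophil genes lie above 0, from 1.51 to 7.24, and most red cell membrane genes lie below -4, down to -9.55 for Car1.

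Levels below are CPM (counts scaled to the size of the library) with library sizes adjusted by trimmed mean of M-values, and single libraries are given in the order of pools 1, 3, 5 and 7. CPM are not divided by gene length and were compared only between libraries for the same gene. Log2 differences are GMP minus MEP with their standard error (SE), so a negative value means higher in MEP. Counts of list members that passed are to be read against all genes tested, of which 20.2% were higher in GMP and 20.1% in MEP. In sorted cells, fewer cells of a type and less RNA per cell cannot be told apart.

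The markers of both labels were found in the sorts of their names. Mpo (myeloperoxidase, the bactericidal enzyme of primary granules; chromosome 11, 87793581 to 87804413) stood at 24640, 18530, 20930 and 25370 CPM in GMP, against 314, 597, 711.5 and 1058 CPM in MEP. Every GMP library was above every MEP library, yet Mpo was counted in all MEP libraries, and the difference was 5.17 (SE 0.319, edgeR adjusted p = 1.84e-05). Car1, the carbonic anhydrase of early red cell precursors (chromosome 3, 14766216 to 14808368), had 2.1, 10.1, 2.27 and 1.36 CPM in GMP, against 3018, 1902, 2362 and 2116 CPM in MEP. GMP pool 3 held the most Car1 of the GMP libraries, and the gap to MEP was the largest among named genes that averaged at least 100 CPM in either population, -9.55 (SE 0.669, edgeR adjusted p = 0.000103). Klf1, the master factor of red cell genes (chromosome 8, 84901928 to 84905291), had 0.323, 2.25, 1.24 and 0.99 CPM in GMP, against 262.5, 159, 194 and 207 CPM in MEP. Those GMP levels rest on 2 to 37 counts a library, and the difference was -7.32 (SE 0.341, edgeR adjusted p = 7.29e-06).

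**Figure D2:**
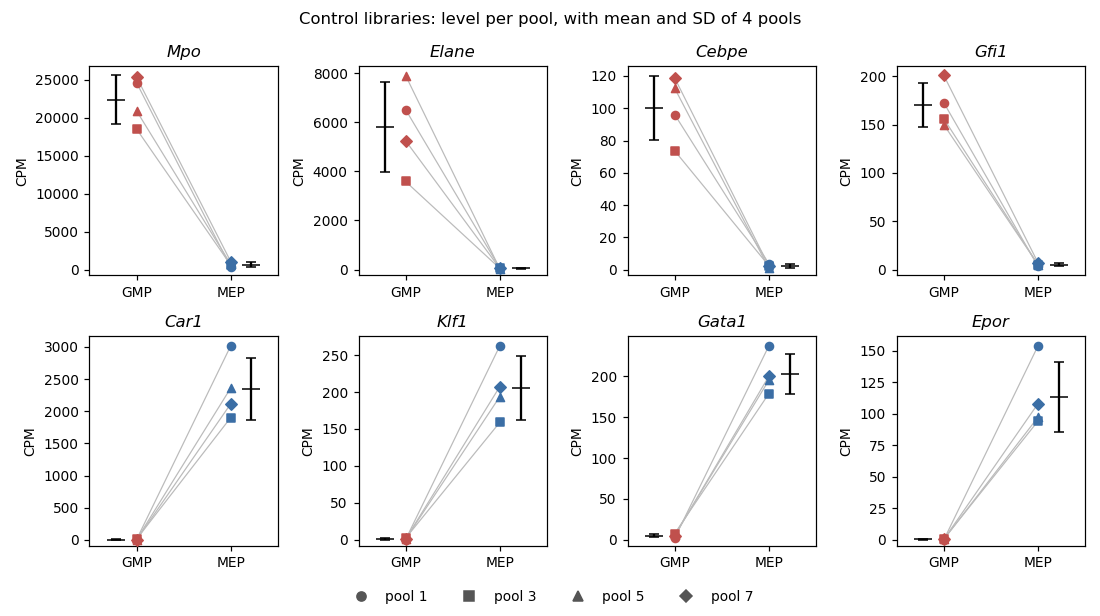
Level in CPM (linear axes from 0) of 4 genes higher in GMP and 4 higher in MEP in each control library. Symbols are pools, grey lines join libraries of the same mice, and bars give mean ± SD of 4 pools. The populations do not overlap for any of the 8 genes.

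The primary granule genes were higher in GMP as a set. All 17 tested members of 18 were higher in GMP, against 20.2% of all genes, with a median of 4.55 against -0.0153 over all genes tested. Bpi was under the filter on low counts, at 0.109 CPM on average in GMP and 0.00593 CPM in MEP. Elane, neutrophil elastase, reached 6509, 3585, 7897 and 5241 CPM in GMP, against 61.2, 47.7, 28 and 47.9 CPM in MEP, the widest gap of the list (6.95, SE 0.356, edgeR adjusted p = 8.68e-06). Its neighbour on chromosome 10, Prtn3 (proteinase 3), had 3760, 2498, 5021 and 3152 CPM in GMP and 51.8, 84.5, 107 and 110.1 CPM in MEP (log2 5.36). Ctsg, the granule protease cathepsin G, had 2575, 2049, 3709 and 2538 CPM in GMP and 30.4, 71.1, 88.6 and 104 CPM in MEP (log2 5.30). In MEP, the 3 genes Mpo, Prtn3 and Ctsg were lowest in pool 1, whereas Elane was lowest in pool 5. Ms4a3, a membrane protein used to trace GMP progeny, averaged 963 ± 303 CPM in GMP and 10.1 ± 0.562 CPM in MEP (SD, n = 4 each; log2 6.51, edgeR adjusted p = 3.31e-06). The smallest differences of the list were those of Ctsc, the protease that activates the granule enzymes (1.62), and Calr, the chaperone calreticulin (2.12). Summed over the list, GMP libraries held 36320 to 52940 CPM and MEP libraries 1774 to 3179 CPM, with the lowest sums in GMP pool 3 and MEP pool 1.

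Genes of eosinophils and basophils were also higher in GMP. Of 9 eosinophil genes, 8 were tested and 8 were higher in GMP, with a median of 6.42, and Ccr3 was under the filter. Prg2, the major basic protein of eosinophil granules, had 567, 305, 862 and 928 CPM in GMP, against 9.82, 3.1, 2.23 and 3.2 CPM in MEP. Its difference of 7.24 (SE 0.534, edgeR adjusted p = 0.000128) was the largest on the GMP side among genes at or above 100 CPM, and MEP pool 1 was the highest of the MEP libraries. Epx, the eosinophil peroxidase, had 146, 89.3, 137 and 260.1 CPM in GMP and 3.82, 0.428, 0 and 1.45 CPM in MEP (log2 6.86, edgeR adjusted p = 0.000184). Summed eosinophil genes ranged over 475.9 to 1397 CPM in GMP and 24.1 to 31.1 CPM in MEP, with the low GMP value in pool 3 and the high one in pool 7. The Ear genes of this list are close copies of each other, and how their counts were split is uncertain.

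Among 11 tested mast cell and basophil genes of 14, 7 were higher in GMP (63.6%, against 20.2% of all genes), with a list median of 1.42. The 2 higher in MEP (18.2%) were near the share over all genes, 20.1%. Mcpt8, a basophil protease, averaged 77.6 ± 23.9 CPM in GMP and 5.03 ± 2.21 CPM in MEP (log2 3.98, edgeR adjusted p = 9.49e-06). Hdc, the enzyme that makes histamine, averaged 266 ± 45.6 CPM in GMP and 12.3 ± 6.32 CPM in MEP (log2 4.56), and Prss34, another basophil protease, 59.8 ± 12.7 CPM in GMP and 0.844 ± 0.995 CPM in MEP (log2 6.48). Cpa3, the mast cell carboxypeptidase, was nearer in the populations, at 76.5, 130.4, 159.6 and 141 CPM in GMP and 16.1, 57.9, 78.9 and 63.3 CPM in MEP. Its ranges overlapped although GMP was higher in 4 of 4 pools (log2 1.37, edgeR adjusted p = 0.00116). Il1rl1, the receptor of interleukin-33 on mast cells, went the other way with 2.75, 9.8, 5.61 and 8.71 CPM in GMP and 65.7, 70.7, 61 and 61.3 CPM in MEP (log2 -3.28, edgeR adjusted p = 5.26e-05), as did Ifitm1 (log2 -0.93), which did not pass without the pool block. The mast cell protease genes Cma1, Tpsb2 and Tpsab1 were under the filter, with means up to 0.413 CPM.

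Monocyte genes were higher in GMP in 14 of 20 members and higher in MEP in 0 (median 1.76). Ly6c2, the surface antigen of inflammatory monocytes, had 1830, 634.5, 1344 and 817 CPM in GMP, against 20, 17.9, 10.2 and 14.7 CPM in MEP (log2 6.10, edgeR adjusted p = 1.08e-05). Slpi, a protease inhibitor, averaged 127.5 ± 67.6 CPM in GMP and 4.69 ± 1.77 CPM in MEP (log2 4.62). F13a1, the coagulation factor XIII subunit of monocytes, had 506, 275, 178 and 167 CPM in GMP and 7.09, 13.9, 21.6 and 31.3 CPM in MEP (log2 3.87, edgeR adjusted p = 0.00687). GMP pool 1 was the highest GMP library for all 3 genes, and the summed list gave 4445 CPM in GMP pool 1 and 2027 to 2809 CPM in GMP pools 3, 5 and 7. Without pool 3 the count of members higher in GMP was 9, and without pool 5 it was 8. Those losses included F13a1 (edgeR adjusted p = 0.106 without pool 3 and 0.0558 without pool 5) and the receptor gene Csf1r (edgeR adjusted p = 0.102 without pool 3). Without pool 1, 3 members passed as higher in MEP, and 1 did by DESeq2 or with no filter.

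Other genes of phagocytes followed the same direction. All 6 subunit genes of the phagocyte oxidase, the enzyme of the respiratory burst, were higher in GMP (median 2.16), from 1.52 for Cyba to 3.15 for Ncf1. Ncf1 averaged 211 ± 60 CPM in GMP and 23.2 ± 2.71 CPM in MEP. Of 17 tested genes that sense microbes, of 20 listed, 13 were higher in GMP and 1 was higher in MEP (median 2.51). Cd14, the co-receptor for lipopolysaccharide, averaged 34.2 ± 11.9 CPM in GMP and 1.04 ± 0.457 CPM in MEP (log2 4.87), and the lectin gene Clec5a 40.1 ± 16.8 CPM in GMP and 1.89 ± 1.04 CPM in MEP (log2 4.45). The exception, Pirb (log2 -1.16), an inhibitory receptor with near-identical relatives, did not pass without pool 3, 5 or 7, where its edgeR adjusted p was 0.0847 to 0.105. Among 18 lysosome genes 13 were higher in GMP and 0 in MEP (median 0.91), led by Cd63, a granule and lysosome membrane protein, at 463.5 ± 158 CPM in GMP and 57.6 ± 14.7 CPM in MEP (log2 2.99). Hexa, a subunit of hexosaminidase, followed the same direction (log2 2.13).

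Genes of late neutrophils, which fill the secondary and tertiary granules after the GMP stage, were divided. Of 18 tested members of 22, 6 were higher in GMP (33.3%, against 20.2% of all genes) and 7 were higher in MEP (38.9%, against 20.1%), with a median of -0.33. Pglyrp1, a peptidoglycan binding protein, had 119, 80.6, 193 and 122 CPM in GMP, against 13.1, 9.63, 4.18 and 4.91 CPM in MEP (log2 4.03, edgeR adjusted p = 0.00052), and Anxa1, the anti-inflammatory annexin, was higher in GMP too (log2 2.83). Ngp, neutrophilic granule protein, had 69.5, 47.5, 35.3 and 35.4 CPM in GMP, against 240.2, 177, 63.8 and 63.4 CPM in MEP. MEP pools 1 and 3 were the highest, while MEP pools 5 and 7 lay within the range of the GMP libraries, and MEP was higher in 4 of 4 pools (log2 -1.34, SE 0.207, edgeR adjusted p = 0.00152). Ltf, lactoferrin, showed the same order with 27.8, 21.3, 16.8 and 14.7 CPM in GMP and 104, 74.7, 25.4 and 26.7 CPM in MEP (log2 -1.29), and Camp (cathelicidin) and Chil3 gave log2 values of -1.10 and -1.06. S100a8 had 272.5, 87, 189.6 and 105 CPM in GMP and 162, 115, 50 and 62.5 CPM in MEP, and S100a9, its partner in calprotectin, 146, 57.2, 78.9 and 52.9 CPM in GMP and 242, 179, 70.2 and 87.6 CPM in MEP, and neither passed (edgeR adjusted p = 0.121 and 0.051). S100a8 passed as higher in GMP without pool 3 (log2 1.13, edgeR adjusted p = 0.00838) and with no filter, and S100a9 passed as higher in MEP without pool 5 (0.0164), with total counts (0.0193), with no filter, by DESeq2 (0.0128) and by limma voom (0.0451). Ly6g, a surface marker of mature neutrophils, was under the filter, at 0.174 CPM on average in GMP and 0.698 CPM in MEP. The count of members higher in MEP was 4 without pool 1, 4 without pool 3 and 3 without the pool block. The part of mature neutrophil RNA in the MEP levels was not tested.

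Transcription factors of the granulocyte and monocyte branch were mostly higher in GMP. Of 20 members 12 were higher in GMP (60%, against 20.2% of all genes) and 4 were higher in MEP (20%, against 20.1%), with a median of 0.76. Cebpe, the C/EBP factor of granule formation, had 96, 73.6, 112 and 119 CPM in GMP, against 3.66, 2.35, 0.836 and 2.13 CPM in MEP (log2 5.47, SE 0.3, edgeR adjusted p = 1.12e-05). Gfi1, a repressor needed for neutrophils, had 172.5, 156, 149.8 and 201 CPM in GMP, against 3.27, 5.03, 5.16 and 6.99 CPM in MEP (log2 5.07, SE 0.176, edgeR adjusted p = 3.31e-06). Both were under 10 CPM in every MEP library, whereas Cebpa, which is required to form GMP, had 240.4, 232, 262 and 241 CPM in GMP and still 11.5, 34.4, 37.9 and 40.8 CPM in MEP (log2 3.08). Spi1, the gene of PU.1, likewise had 257.5, 200.5, 264 and 220.1 CPM in GMP and 23.7, 42.7, 40.7 and 42.9 CPM in MEP (log2 2.67, edgeR adjusted p = 4.57e-05). MEP pool 1 was the lowest MEP library for Cebpa, Spi1 and Gfi1. Irf8, the monocyte and dendritic cell factor, had 304, 169, 129 and 90.5 CPM in GMP and 54.5, 96.1, 59.5 and 81.9 CPM in MEP. It passed with all pools (log2 1.12, edgeR adjusted p = 0.0453) and not without pool 3 or pool 5 (0.143 and 0.182).

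The myeloid factors higher in MEP with all pools were Egr1, Ikzf1, Id2 and Rara. They made up 20% of the list, near the 20.1% of all genes, and the count was 2 without pool 3 or pool 7. Id2 did not pass in those fits (edgeR adjusted p = 0.117 and 0.105), and Rara did not pass without pool 3, 5 or 7 (0.0667 to 0.136). Egr1, an immediate early gene, had 146, 191, 104 and 197 CPM in GMP, against 601, 910.3, 902 and 693 CPM in MEP (log2 -2.30, edgeR adjusted p = 0.00012). Ikzf1, the factor Ikaros, had 265, 267, 182 and 269.5 CPM in GMP and 444, 409, 404 and 442 CPM in MEP, without overlap (log2 -0.81). Myb, needed by both branches, was moderately higher in GMP, averaging 1053 ± 139 CPM in GMP and 677 ± 73.1 CPM in MEP (log2 0.63).

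In MEP, the erythroid factors were higher in 18 of 21 tested members, against 20.1% of all genes, with 1 higher in GMP and a median of -1.36. Gata1 (chromosome X) had 2.26, 7.73, 5.65 and 5.03 CPM in GMP, against 237.5, 179, 195.5 and 200.4 CPM in MEP (log2 -5.26, SE 0.284, edgeR adjusted p = 1.06e-05). Its cofactor Zfpm1 had 7.44, 28.9, 7.18 and 15.4 CPM in GMP and 318.5, 294, 246 and 287.5 CPM in MEP (log2 -4.46). Gfi1b, the relative of Gfi1 in the red cell and platelet branch, had 0.808, 4.22, 1.97 and 1.65 CPM in GMP, against 214, 147, 158 and 159 CPM in MEP (log2 -6.25, SE 0.338, edgeR adjusted p = 1.06e-05). The relatives Gfi1 and Gfi1b thus differed in opposite directions. Gata2, the GATA factor of stem cells, early progenitors and mast cells, was present in both, at 37, 75.1, 47.6 and 53.5 CPM in GMP and 195.5, 355, 323 and 235 CPM in MEP (log2 -2.38). Tal1 and Ldb1, which join GATA-1 in a complex on red cell genes, gave log2 values of -2.67 and -1.76 (edgeR adjusted p = 1.26e-05 and 1.14e-05). Lyl1, the close relative of Tal1, was the member higher in GMP, at 209, 177, 189 and 222 CPM in GMP, against 72.6, 80.3, 79.2 and 84.2 CPM in MEP (log2 1.33, edgeR adjusted p = 4.98e-05). Nfe2, the factor of platelet formation, had 141, 132, 170.5 and 134 CPM in GMP and 112.5, 158.5, 162 and 129 CPM in MEP and did not pass (log2 0.05, edgeR adjusted p = 0.788), nor did Bach1 (log2 0.23).

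The red cell membrane list had the lowest median of the lists described here, -6.75. Of its 24 members 22 were higher in MEP and 1 was higher in GMP. Ermap, an erythroblast membrane protein, had 0.323, 1.26, 0.401 and 0.165 CPM in GMP, against 420.1, 284, 262 and 335 CPM in MEP (log2 -9.34, SE 0.375, edgeR adjusted p = 4.58e-06). The water channel Aqp1 had 1.46, 7.91, 1.17 and 1.49 CPM in GMP and 1258, 875, 920.1 and 1050 CPM in MEP (log2 -8.74, edgeR adjusted p = 0.000112). For Ank1 (ankyrin), Add2 (beta adducin), Kel (Kell blood group protein) and Rhag (Rh-associated glycoprotein), GMP means were 0.442 to 0.844 CPM and MEP means 123.9 to 210.2 CPM, with log2 values of -8.70 to -7.65. In GMP such levels rest on few reads, 0 to 17 counts a library for these 4 genes. Slc4a1, the anion exchanger band 3 of late red cell precursors, was low in both, at 1.13, 0.0899, 0.0334 and 0.0413 CPM in GMP and 8.57, 4.49, 1.39 and 2.7 CPM in MEP (log2 -4.39). Slc2a1, the glucose carrier Glut1, was the exception with 28.3, 18.7, 19.7 and 23.3 CPM in GMP, against 7.4, 10.1, 9.62 and 9.01 CPM in MEP (log2 1.31, edgeR adjusted p = 0.0012).

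Adult globin genes were higher in MEP in 4 of 4 tested members, and 3 embryonic genes were under the filter. Hba-a1 had 1.46, 2.88, 3.47 and 3.55 CPM in GMP, against 144, 65, 56.4 and 64.8 CPM in MEP (log2 -4.57, edgeR adjusted p = 4.47e-05), and Hbb-bt 0.647, 1.62, 1.14 and 0.495 CPM in GMP and 42.7, 28.9, 25.2 and 20.6 CPM in MEP (log2 -4.83). The copies Hba-a1 and Hba-a2, and Hbb-bt and Hbb-bs, are near-identical, so the split between the members of each pair is uncertain. The list summed to 5.03 to 13.5 CPM in GMP and 149.8 to 301.4 CPM in MEP, highest in MEP pool 1.

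At the entry step of heme synthesis, Alas1 and Alas2 differed in opposite directions. Alas1 was still counted in every MEP library, and Alas2 was low throughout. Alas1, the aminolevulinate synthase used in most tissues, had 670, 590.5, 717 and 775 CPM in GMP, against 33, 36.7, 35.1 and 38.4 CPM in MEP (log2 4.26, SE 0.119, edgeR adjusted p = 2.45e-06). Alas2, the red cell form, was low in both populations, at 0.323, 0.899, 0.267 and 0.33 CPM in GMP and 3.74, 2.46, 2.51 and 1.83 CPM in MEP, and the difference had the opposite sign (log2 -2.54, SE 0.406, edgeR adjusted p = 0.00181). Enzymes of later steps were higher in MEP: Alad (-2.55), Uros (-1.52), Urod (-1.55), Cpox (-2.93), Ppox (-1.14) and Fech (-1.54). Cpox, for one, had 35.1, 43.6, 34.8 and 43.9 CPM in GMP and 372, 269, 247 and 328 CPM in MEP. Over the whole list of heme and iron genes, 3 of 28 were higher in GMP (5 by DESeq2 or limma voom) and 21 were higher in MEP (median -1.31). The other 2 higher in GMP were Ncoa4, the receptor for ferritin breakdown (log2 1.33), and Slc25a37, mitoferrin 1 (log2 0.76). Blvrb, a biliverdin reductase of red cells, had the largest gap, 7.11, 5.57, 6.82 and 3.63 CPM in GMP and 312, 177.5, 195 and 218.5 CPM in MEP (log2 -5.28, edgeR adjusted p = 4.36e-06). The iron uptake receptors Tfrc and Tfr2 were higher in MEP by log2 values of -1.29 and -2.96.

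Alternative enzymes for the same step of glycolysis differed in opposite directions. Of 19 genes 12 were higher in GMP (63.2%, against 20.2% of all genes), with a list median of 0.97. The 4 higher in MEP (21.1%) were near the share over all genes, 20.1%. Pklr, the pyruvate kinase of red cells and liver, had 0.162, 1.17, 0.234 and 0.289 CPM in GMP, against 361, 202, 232 and 267.5 CPM in MEP (log2 -9.23, SE 0.385, edgeR adjusted p = 4.95e-06). Pkm, the pyruvate kinase of most other cells, had 1682, 1296, 1580 and 1513 CPM in GMP, against 129, 241, 235 and 232 CPM in MEP (log2 2.89, SE 0.216, edgeR adjusted p = 4.39e-05). The hexokinases followed this pattern, with Hk3 at 576 ± 63.3 CPM in GMP and 37.4 ± 13.8 CPM in MEP (log2 4.00), Hk2 also higher in GMP (log2 2.15) and Hk1 at 168 ± 40.5 CPM in GMP and 464 ± 36.6 CPM in MEP (log2 -1.50). Of the phosphofructokinases, Pfkp was higher in GMP (log2 2.02), Pfkm was higher in MEP (log2 -2.42) and Pfkl did not pass (log2 0.14, edgeR adjusted p = 0.283). Ldhb, a lactate dehydrogenase subunit, was higher in GMP (log2 3.66), as were the steps of Gpi1 (log2 1.78) and Pgam1 (log2 2.76), each without overlap.

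**Figure D3:**
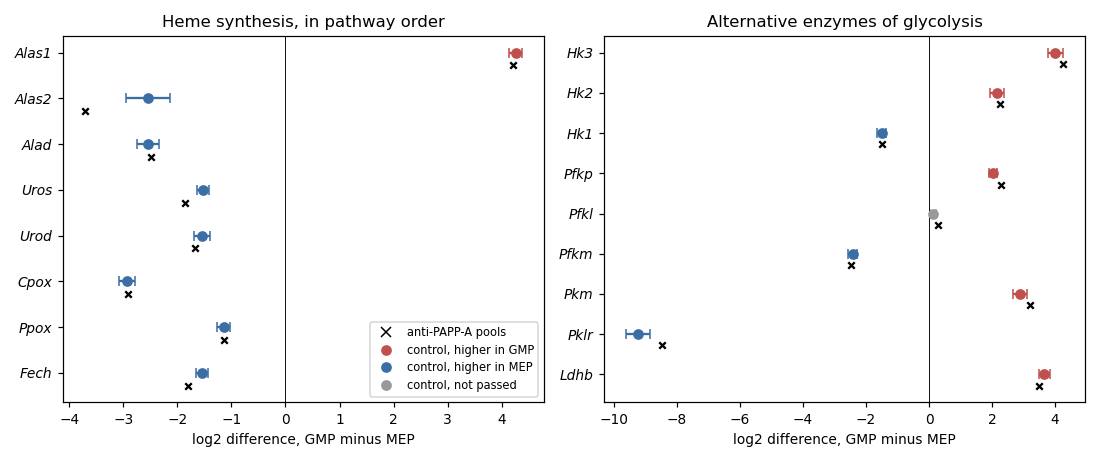
Log2 difference (GMP minus MEP, points with SE, control pools; crosses, anti-PAPP-A pools) of enzymes of heme synthesis in pathway order and of alternative enzymes of glycolysis. Alas1 and Pkm lie right of 0 at 4.26 and 2.89, and Alas2 and Pklr lie left of 0 at -2.54 and -9.23.

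Megakaryocyte and platelet genes were higher in MEP in 17 of 21 tested members of 25, with 1 higher in GMP (median -2.45). F2r, a thrombin receptor, had 1.29, 8.18, 1.47 and 0.908 CPM in GMP, against 66.1, 129, 113 and 81.5 CPM in MEP (log2 -5.47, edgeR adjusted p = 0.000118). Vwf, von Willebrand factor, had 1.94, 11.9, 1.97 and 2.64 CPM in GMP and 41, 43.5, 37.2 and 26.6 CPM in MEP (log2 -3.33), and Gp5, a platelet glycoprotein, 0, 1.44, 0.735 and 0.536 CPM in GMP and 31.4, 31.6, 32.6 and 27.1 CPM in MEP (log2 -5.44). Itga2b (CD41), the integrin of platelets and of early progenitors, was shared more evenly, at 37.3, 74.8, 58 and 65.6 CPM in GMP and 129.7, 244, 204 and 130.1 CPM in MEP (log2 -1.57). Fli1, an ETS factor of megakaryocytes, was the exception, with 88.4, 91.4, 69.5 and 90.4 CPM in GMP, against 25.8, 51.1, 42.6 and 31.7 CPM in MEP (log2 1.21, edgeR adjusted p = 0.00165). Pool 3 stood out among the GMP libraries. It was the highest for 16 of the 17 genes higher in MEP here, for 15 of the 22 of the red cell membrane list and for 10 of the 18 erythroid factors. Pool 3 was also the highest for 8 of 10 stem cell genes and 6 of 8 dendritic cell genes higher in MEP. The share over all genes higher in MEP was not counted. On the first principal component GMP pool 3 lay nearest to MEP, at -59.8 against -86.8 to -74.2 in the other GMP libraries. Without pool 3 the counts higher in MEP were 17, 21 and 18 for the megakaryocyte, red cell membrane and erythroid factor lists. MEP pools 3 and 5 were the highest MEP libraries for F2r, and MEP pool 1 was the highest for Car1, Klf1, Gata1 and Epor.

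Cytokine receptors were mostly higher in GMP. Of 25 tested genes 16 were higher in GMP (64%, against 20.2% of all genes) and 5 in MEP (20%, against 20.1%), with a median of 1.13. The count higher in MEP was thus near the share over all genes. Epor, the erythropoietin receptor (chromosome 9, 21958897 to 21963506), had 0, 0.719, 0.334 and 0.371 CPM in GMP, against 154, 94.2, 97.3 and 108 CPM in MEP (log2 -8.10, SE 0.31, edgeR adjusted p = 4.36e-06). The GMP values are 0 to 10 counts a library. Csf3r, the receptor of granulocyte colony-stimulating factor, had 213, 197, 133 and 236 CPM in GMP, against 15.7, 33.5, 27.2 and 30.4 CPM in MEP (log2 2.88, edgeR adjusted p = 6.03e-05). Csf2rb, the shared beta chain of the GM-CSF, interleukin-3 and interleukin-5 receptors, averaged 106 ± 14 CPM in GMP and 15 ± 5.66 CPM in MEP (log2 2.87), and its close copy Csf2rb2 makes the split uncertain. Csf1r, the macrophage receptor, had 142, 77.2, 54.2 and 52.6 CPM in GMP and 6.47, 11.9, 16 and 19 CPM in MEP (log2 2.51). Flt3, a receptor of lymphoid and early progenitors, was higher in MEP with overlapping ranges, 13.1, 43.8, 11.4 and 7.84 CPM in GMP and 35.1, 64.4, 51.6 and 61.4 CPM in MEP (log2 -1.79, edgeR adjusted p = 0.00891), and did not pass without pool 1 or pool 5 (0.0513 and 0.0804). Il17ra was higher in MEP as well (log2 -1.01).

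The 4 genes below, whose proteins are commonly used to sort these populations, are given as values only, since they may have set the gates. Kit had 280.1, 325, 286 and 348 CPM in GMP and 347, 423, 391 and 355 CPM in MEP, and Cd34 had 244, 367, 320 and 299 CPM in GMP and 67.5, 160.2, 165 and 179.9 CPM in MEP. Fcgr3 had 224, 161, 163 and 231 CPM in GMP and 4.29, 4.71, 2.37 and 3.86 CPM in MEP, and Fcgr2b 113, 95, 110.4 and 119.9 CPM in GMP and 4.68, 12, 11.3 and 10.6 CPM in MEP. The Kit ranges overlapped and those of the other 3 did not.

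Of the IGF axis, 6 of 17 genes passed the filter. Igfbp4, an IGF binding protein cut by PAPP-A, had 758, 632, 909.7 and 633 CPM in GMP, against 109, 249, 250.3 and 219 CPM in MEP (log2 1.88, edgeR adjusted p = 0.000499). Igf2r, which takes up and clears IGF-2, had 4.85, 5.39, 1.64 and 5.41 CPM in GMP, against 45.3, 32.2, 26.2 and 36.6 CPM in MEP (log2 -3.11, SE 0.242, edgeR adjusted p = 5.17e-05). The signalling receptor Igf1r differed little, at 145, 148, 172 and 179 CPM in GMP and 117, 131, 141 and 101.5 CPM in MEP (log2 0.40, edgeR adjusted p = 0.0372), and did not pass without pool 1, 3 or 7 (0.0534 to 0.142) or with libraries scaled by total counts (0.116). Insr, the insulin receptor, was higher in GMP (log2 0.58), and Irs2 and Igfbp7 did not pass. Pappa itself averaged 0.0745 CPM in GMP and 0.277 CPM in MEP.

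Genes of other lineages were not evenly divided. Of 15 dendritic cell genes 9 were tested, 8 were higher in MEP (88.9%, against 20.1% of all genes) and 1 in GMP (11.1%, against 20.2%), with a median of -2.57. Zbtb46, a factor of classical dendritic cells that is also found in red cell progenitors, had 0.323, 0.809, 0.267 and 0.33 CPM in GMP, against 41, 25.1, 27.7 and 28.9 CPM in MEP (log2 -6.17, SE 0.302, edgeR adjusted p = 7.48e-06). Cd74, the invariant chain of antigen presentation, had 7.44, 26.1, 6.15 and 6.68 CPM in GMP and 74.4, 119, 60.3 and 76.5 CPM in MEP (log2 -3.06). The dendritic cell genes Siglech, Xcr1, Batf3, Irf4, Cd209a and Ly6d were under the filter, with means up to 0.913 CPM.

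Of 18 lymphoid genes 10 were tested, with 2 higher in GMP (20%, against 20.2% of all genes) and 5 in MEP (50%, against 20.1%). The count higher in GMP was thus near the share over all genes. Those higher in GMP numbered 1 without pool 1, 5 or 7, and those higher in MEP 3 without pool 7, 1 with libraries thinned to the smallest total and 10 with no filter on low counts. Dntt, the polymerase of receptor rearrangement, had 0.162, 1.44, 0.167 and 0.0413 CPM in GMP, against 21.6, 49.8, 18.1 and 20.7 CPM in MEP (log2 -6.30, edgeR adjusted p = 2.8e-05), highest in pool 3 of both populations. Cd79b, a B cell receptor chain, was higher in GMP (log2 2.04). Pax5, Cd3e, Cd7, Ncr1 and Il7r, markers of B, T and natural killer cells and their progenitors, were under the filter. Of 3 tested stromal and vessel genes 1 was higher in GMP and 2 in MEP, and Cxcl12, Lepr, Cdh5 and 6 others of the 12 were under the filter. The count higher in MEP was 1 without pool 5 or 7 and 0 with thinned libraries, and Pdgfrb (log2 -0.64, edgeR adjusted p = 0.0489) did not pass without pool 3, 5 or 7, with log2 -0.38 without pool 5.

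Stem cell genes were higher in MEP in 10 of 16 tested members (62.5%, against 20.1% of all genes), with a list median of -1.10. The 3 higher in GMP (18.8%) were near the share over all genes, 20.2%. Meis1, a homeobox factor of stem cells, had 10.7, 27.5, 13.9 and 17.4 CPM in GMP, against 36.2, 94.3, 80.5 and 52.7 CPM in MEP (log2 -1.92, edgeR adjusted p = 9.86e-05), and Mycn 0.485, 1.44, 0.301 and 0.66 CPM in GMP and 8.03, 24.7, 21 and 11.9 CPM in MEP (log2 -4.65). Both were highest in pool 3 and lowest in pool 1 among the MEP libraries. Of 7 tested Hoxa and Hoxb genes of 13, 2 were higher in GMP (28.6%, against 20.2% of all genes) and 0 in MEP. The first count was 1 without pool 7, and the second was 1 without pool 1 or pool 3.

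**Figure D4:**
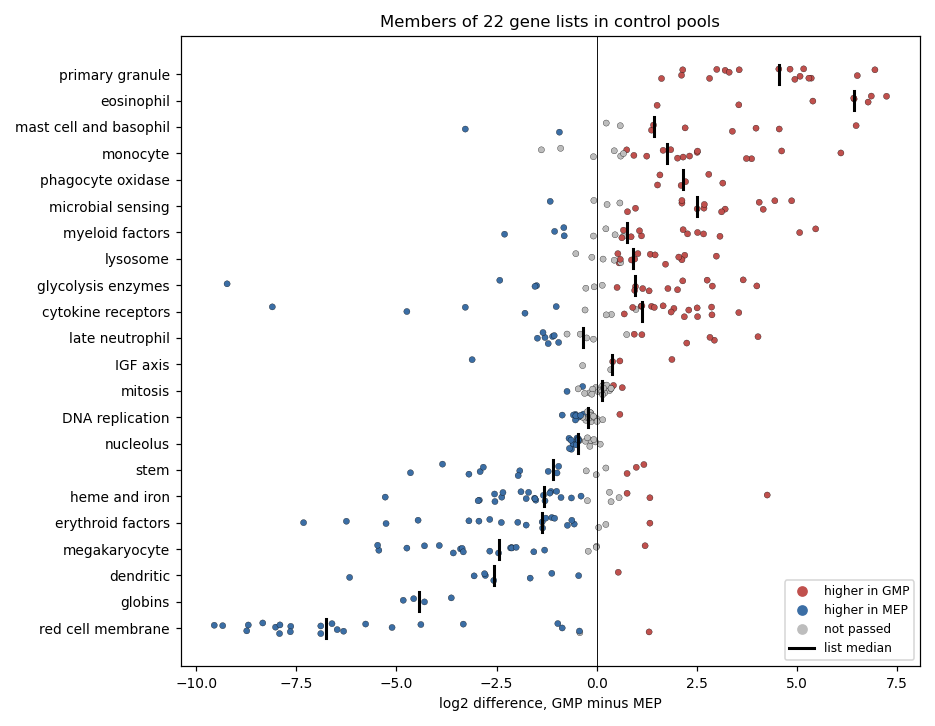
Log2 difference (GMP minus MEP, control pools) of every tested member of 22 gene lists, coloured by call, with the list median as a bar. The lists were chosen with earlier results known. Medians run from 6.42 for eosinophil genes to -6.75 for red cell membrane genes, and replication and mitosis genes sit near 0.

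Cell cycle genes differed by small amounts, with all log2 values of both lists between -0.86 and 0.64. Of 22 mitosis genes 2 were higher in GMP and 2 in MEP (median 0.14), and of 24 replication genes 1 was higher in GMP and 8 in MEP (median -0.21), against 20.2% and 20.1% of all genes. Mitosis genes higher in GMP numbered 7 without pool 1 and 1 without pool 3, 5 or 7, with total counts or with upper quartile scaling, and those higher in MEP 1 without pool 1, 5 or 7. Mcm2, a subunit of the replicative helicase, had 321, 320.4, 259.8 and 312 CPM in GMP, against 436, 443, 411 and 458 CPM in MEP (log2 -0.53, edgeR adjusted p = 0.00317). The count of replication genes higher in MEP was 5 without pool 1, 4 without pool 3, 12 without pool 5 and 3 without pool 7. Ccne1, cyclin E1, stood apart with 15, 14.5, 19.7 and 13.6 CPM in GMP, against 146, 96.6, 93.1 and 115 CPM in MEP (log2 -2.82, SE 0.18, edgeR adjusted p = 2.13e-05). With Ccne1, 13 cyclins, kinases and inhibitors were tested, of which 2 were higher in GMP (15.4%), 4 were higher in MEP (30.8%) and 7 did not pass. Those higher in GMP numbered 1 without pool 1 or 3 and 0 without pool 7 or with total counts, and those higher in MEP 2 without pool 1 or 7.

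Nucleolar genes of ribosome synthesis were higher in MEP in 12 of 20 members and higher in GMP in 0 (median -0.46). Ncl, nucleolin, averaged 1440 ± 119 CPM in GMP and 2100 ± 239 CPM in MEP (log2 -0.54, edgeR adjusted p = 0.00728), while Myc did not pass (log2 -0.23). The count was 6 without pool 1, 7 without pool 7 and 8 without the pool block. The 13 protein genes of the mitochondrial genome were higher in MEP in 13 of 13 (log2 -1.68 to -0.70, median -1.15), and they took 2.78% to 3.32% of counts in GMP and 5.43% to 9.4% in MEP. Within pool 5, mt-Nd6 was the exception, at 945.6 CPM in GMP and 910.5 CPM in MEP. The gap in that pool was small for mt-Co3 (5209 and 5377 CPM) and mt-Nd3 (488.5 and 511.7 CPM). It was wide for mt-Nd5 (602.6 and 2114 CPM) and mt-Nd4l (38.05 and 290.4 CPM). In that list mt-Nd6 and mt-Nd5 lie on opposite strands, and whether the counting used strand is not given in the sources used here.

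Among 11 carriers of amino acids and sugars 5 were higher in GMP and 5 in MEP (45.5% each, against 20.2% and 20.1% of all genes). Those higher in GMP numbered 3 without pool 1 or 3 and 2 without pool 7, also 3 with total counts, with no filter or with thinned libraries, and those higher in MEP 3 without pool 1 or 7. Slc38a5, a glutamine and asparagine carrier, had 0.323, 0.629, 0.401 and 0.536 CPM in GMP, against 139, 80.8, 99.2 and 105 CPM in MEP (log2 -7.71, SE 0.202, edgeR adjusted p = 2.45e-06). Cholesterol synthesis genes were split, with 6 higher in GMP (35.3%) and 5 in MEP (29.4%) of 17. Integrins and adhesion genes were split as well, with 8 (47.1%) and 6 (35.3%) of 17. The remaining genes that the naming rule selected by size were Mtus1 (log2 5.75), the glycosyltransferase gene B4galt6 (log2 5.48), Sphk1 (log2 -8.11), which makes sphingosine 1-phosphate, and the sodium pump subunit gene Atp1b2 (log2 -7.86).

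The same contrast was fitted in the anti-PAPP-A pools, which share no animals with the control pools. Of 13576 genes tested there, 2989 were higher in GMP (22%) and 2818 were higher in MEP (20.8%), 42.8% in all. Of 13437 genes tested in both sets, 5564 were called in control pools and 4731 of these were called with the same sign in anti-PAPP-A pools, which is 81.8% of the anti-PAPP-A calls and 85% of the control calls. None (0) was called with the opposite sign. Mpo differed by 5.68 in anti-PAPP-A pools and 5.17 in control pools, Car1 by -9.09 and -9.55, and Klf1 by -6.82 and -7.32. All 17 tested primary granule genes were again higher in GMP, and 22 of 24 red cell membrane genes, 17 of 21 erythroid factors and 16 of 21 megakaryocyte genes were higher in MEP.

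The late neutrophil list gave other counts, with 2 of 17 members higher in GMP and 0 in MEP in the anti-PAPP-A pools. Its median log2 there was -1.01, against -0.33 in control pools, so the list still leaned to MEP although no member passed on that side. Ngp had 28.8, 71.2, 40.9 and 26.8 CPM in anti-PAPP-A GMP pools 2, 4, 6 and 8, against 1457, 143, 86.5 and 108 CPM in anti-PAPP-A MEP. MEP pool 2 was far above the others, and the difference did not pass (log2 -2.24, edgeR adjusted p = 0.0937). A change of the GMP and MEP difference with the antibody was tested in 1 model of all 16 libraries. No gene of 14878 passed (0%) by edgeR, 345 (2.32%) had an unadjusted p under 0.05, and DESeq2 called 3.

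**Figure D5:**
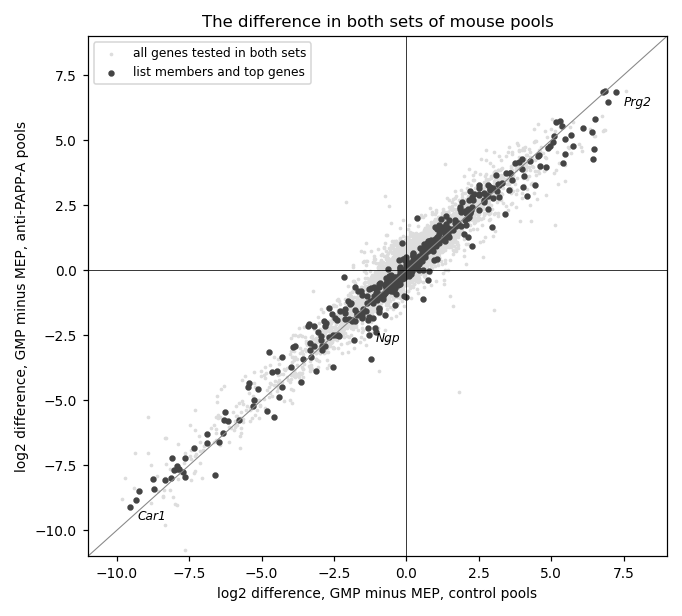
Log2 difference (GMP minus MEP) of genes in anti-PAPP-A pools against control pools. Light points are all 13437 genes tested in both sets, dark points the 440 list members and top genes, and the line marks equal values. Of the 440, 20 had opposite signs, 2 of which, Lilrb4a and Pdgfrb, were called in control pools.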

How the data were processed

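Sorted GMP and MEP gave RNA by a Qiagen column kit with a DNase I step, and NEBNext Ultra II Directional libraries, which keep the strand, were read on a HiSeq 4000 (per the labels' protocols). FastQC 0.11.5, Salmon (which assigns reads to transcripts without full alignment) and mm10 are the tools and build that the submitters' processing notes name. Which Salmon release and which annotation were used is not given in the sources used here. The values deposited by the authors are expected counts (estimated counts) per gene, already whole numbers and unscaled. Of 56332 genes, 18072 stood on more than 1 line with equal values, and 1 line was kept. Where Salmon split reads between near-identical or overlapping genes, a value is uncertain.

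The 8 control libraries were fitted with edgeR 4.0.16 in R 4.3.3: filterByExpr by population, scaling by trimmed mean of M-values, pool as a block, the robust quasi-likelihood test and Benjamini-Hochberg adjustment at 0.05 over all genes tested. The pool number of the labels marks the same mice in both sorts. Deviations of same-pool libraries from their population means correlated over genes at 0.0735, 0.191, 0.265 and 0.113 for control pools 1, 3, 5 and 7. Different control pools gave -0.318 to 0.177. For anti-PAPP-A pools 2, 4, 6 and 8 the same-pool values were -0.0898, -0.0881, 0.461 and 0.169, and different anti-PAPP-A pools gave -0.468 to 0.361. The pairing thus rests on the labels. The anti-PAPP-A pools were fitted alike, and 1 model of 16 libraries tested the interaction. No pair of libraries of a population agreed within sampling noise. The code was tested on simulated data. Alternatives were other scalings, no filter, DESeq2 1.42.0, limma 3.58.1 voom, no block, each pool left out, libraries thinned to the smallest total, Ensembl IDs alone and stricter calls.

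Named genes were Mpo, Car1 and Klf1, then the 12 largest differences per direction among genes past the threshold, in 4 of 4 pools, at 100 CPM or more in the higher population and with an Ensembl ID and an ordinary gene symbol, then members of 30 gene lists (506 genes measured) with the 4 smallest p per direction and those needed to account for a list. The members and lists were chosen with earlier results of these data known. Ahsp and Flvcr1 were not analysed here, and some list members are counted in their lists but not reported singly. Positions are from GENCODE M21 (GRCm38), whose release may differ from the authors'.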

Additional observations from a re-analysis of the deposited data

Results flagged for a closer look

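Within the 4 libraries of a population, a value was listed here where 1 library lay far from the other 3, with a gap to the nearest of them above the 95% critical value of Dixon's test. Of 276 groups of 4 values examined, 28 met this, and chance alone gives about 1 in 20.

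GMP pool 3 was high for genes that were higher in MEP: Car1 (10.1 CPM), Aqp1 (7.91), Pklr (1.17), Alas2 (0.899), F2r (8.18), Vwf (11.9), Flt3 (43.8), Zbtb46 (0.809), Cd74 (26.1), H2-Aa (12.3) and Dntt (1.44 CPM). MEP pool 3 was high for Dntt too (49.8 CPM). Without pool 3 the log2 differences of Car1, Aqp1 and Pklr were -10.33, -9.58 and -10.01.

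MEP pool 1 was high for Gfi1b (214 CPM), Kel (181.8), Tfr2 (301.6), Hba-a1 (143.7), Hbb-bs (59.7) and Prg2 (9.82 CPM), and low for Spi1 (23.7) and Pkm (129.1 CPM).

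GMP pool 1 was high for Ctsc (73.9 CPM) and Slc4a1 (1.13 CPM) and for the 6 features grouped as ribosomal RNA, at 12.8% of its counts. GMP pool 5 was low for Ikzf1 (181.6 CPM), Fli1 (69.5), Igf2r (1.64) and Mcm2 (259.8 CPM). MEP pool 7 had the largest total, 42471152 counts. The causes of these values were not tested.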

How the results depend on the processing

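The counts of 2874 genes higher in GMP and 2862 higher in MEP stayed within 1.5 times under the other scalings, tools, filter, depth and IDs, from 2486 to 3150 and from 2607 to 3363. Leaving out 1 pool at a time gave 2283 to 3193 and 1957 to 3133. At an adjusted p of 0.01, 1847 genes were higher in MEP, and with a log2 difference of at least 1 the counts were 1573 and 1271. With no replicate block, in place of pairing by pool, the counts were 2781 and 2620, and 6 of 135 named genes changed their call: Chil3, Pirb, Rara, Ifitm1, Lilrb4a and Pdgfrb. In the anti-PAPP-A pools the block changed neither count by 1.5 times (2891 and 2728 without it), but leaving out 1 pool gave 1898 to 3071 and 1641 to 2733, the lowest without pool 8 (1898 and 1641), followed by pool 6 (1970 and 1746). For the difference between treatments, DESeq2 called 3 genes and a fit with no filter called 10, against 0; leaving out any 1 pool gave 0.

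Over the 135 named genes and 15 alternatives, 1952 values kept their direction and call, 58 lost the call, 11 gained it and 2 turned, and Cd22 and Col1a2 gave no value with thinned libraries, where they were under the filter. The 2 that turned were of 1 gene: Nfe2, not called, had log2 -0.04 under total counts and -0.01 without replicate 1, and between -0.01 and 0.15 over the 4 fits that left out a pool. The causes were not tested. The smallest library, MEP pool 5, held 6886882 counts, which limits the precision of genes under 1 CPM.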

Other observations

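The 3 transcription factor genes given here belong to the erythroid factor list and were picked after their values were seen. Bcl11a encodes a repressor of embryonic and fetal globin genes. Bcl11a had 47.2, 52.8, 48.4 and 51.8 CPM in GMP, against 203.3, 197.2, 203.6 and 182.2 CPM in MEP (log2 -1.97, edgeR adjusted p = 8.61e-06). Sox6, which acts with it in red cells, had 0.808, 2.97, 2.4 and 1.77 CPM in GMP, against 16.5, 23.0, 20.3 and 14.0 CPM in MEP (log2 -3.19, edgeR adjusted p = 3.99e-05). Nfia had 8.24, 12.8, 12.4 and 7.96 CPM in GMP, against 115.2, 61.4, 77.1 and 74.1 CPM in MEP (log2 -2.94, edgeR adjusted p = 6.15e-05). No GMP library overlapped a MEP library for these 3 genes.

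Some genes of other cells were low in MEP and still higher there than in GMP. Their lists did not all go this way: 2 of 10 tested lymphoid genes, Cd79b among them, and 1 of 3 tested stromal and vessel genes were higher in GMP. With libraries thinned to the smallest total, Col1a2 and Cd22 were under the filter. The counts higher in MEP were then 1 for lymphoid genes and 0 for stromal and vessel genes. The collagen gene Col1a2 had 0.162, 0.18, 0.2 and 0.0825 CPM in GMP, against 2.1, 2.25, 2.93 and 2.32 CPM in MEP (log2 -3.99, edgeR adjusted p = 1.5e-04), while Col1a1, its partner in collagen I, was under the filter at 0.637 CPM in GMP and 0.71 CPM in MEP. The B cell gene Cd22 had 0.162, 0.539, 0 and 0.124 CPM in GMP, against 1.48, 4.07, 1.11 and 1.78 CPM in MEP (log2 -3.67, edgeR adjusted p = 0.00146). H2-Aa, a class II antigen presentation gene, had 2.91, 12.3, 2.91 and 3.34 CPM in GMP, against 29.5, 39.1, 24.1 and 32.3 CPM in MEP (log2 -2.78, edgeR adjusted p = 2.25e-04). The part of other cells in these levels was not tested.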
